A study of Rattus norvegicus with 6 samples.

Results

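The proteasome genes of rat atrial fibroblasts are described here, from the shared core of the enzyme to the subunits that turn it into the immunoproteasome. The members were every row of the gene table whose symbol starts with Psma, Psmb, Psmc, Psmd, Psme, Psmf or Psmg followed by a number, together with Pomp, which gave 50 of the 40154 genes. The libraries were mRNA sequencing of fibroblasts isolated from the atrial muscle of Sprague-Dawley rats 1 to 3 days old and cultured in medium with fetal bovine serum. A control siRNA (si-NC) or an siRNA against GPD1L (si-GPD1L) was transfected, and the cells were sequenced after 24 h, with 3 libraries in each group. All 6 libraries carry the treatment label "Atrial differentiation". The study silenced GPD1L to ask how its loss affects fibrosis. The labels do not say whether the 3 libraries of a group came from separate cultures or animals, nor whether the digit ending each si-GPD1L name is a replicate or another siRNA, so the p-values measure only the spread between these samples, which may be technical.

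The proteasome degrades proteins that carry ubiquitin. Its barrel-shaped 20S core is built of α rings and β rings, and a few of the β subunits cut the protein. The 19S particle caps the core, recognises ubiquitin and unfolds the substrate with a ring of ATPases. Under interferon, cells make 3 alternative catalytic subunits, encoded by Psmb8, Psmb9 and Psmb10, which are built into new cores in place of those encoded by Psmb5, Psmb6 and Psmb7. The resulting immunoproteasome, often with the PA28αβ activator encoded by Psme1 and Psme2, is known for making peptides that suit MHC class I molecules. Outside the immune system many cells express these catalytic subunits at a low level until they are induced.

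The library totals ran from 16892255 to 20149732 counts. Gpd1l, the targeted gene, had raw counts of 265, 314 and 321 in si-NC against 202, 229 and 303 in si-GPD1L. Its log2 fold change was -0.31 with a standard error of 0.15 (adjusted p = 0.234 by the quasi-likelihood test of edgeR), and si-GPD1L replicate 3 lay inside the si-NC range, so a fall of the target was not shown in these libraries. Fibroblast markers had a summed normalized count of at least 1406720 in every library, against at most 41015 for the cardiomyocyte markers and at most 3786 for the leukocyte markers. Most of the fibroblast sum was Col1a1 and Col3a1, at means of 762835 and 548766 in si-NC. The sums are therefore not shares of cells. Libraries of 1 group differed by more than sampling noise, and si-NC replicate 1 stood furthest from its group (chi-square per degree of freedom 21.2 and 29.6 against the other two, and 4.1 to 8.93 for the other pairs of a group).

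Of the 50 members, 48 had enough counts to be tested. Psma8, an α subunit of the testis, reached 1 count in 1 library, and Psmb11, the catalytic subunit of the thymus, had 0 to 4 counts. Psmc3ip matched the naming rule but encodes a recombination factor and no proteasome subunit. It is kept in the counts because the rule takes it in.

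The start regions of the genes that changed most are shown first, because 3 of them hold the letters of the interferon-stimulated response element, to which interferon regulatory factors bind. The windows are RefSeq sequence of the rat genome GRCr8, from 250 bases before to 50 bases after the annotated start, and 45 of the 50 members have one. They are printed 5′ to 3′ on the strand of the gene, with each match to the element, taken as GAAA, any 2 bases and GAAA and searched on both strands, in capitals (TTTC, any 2 bases and TTTC where the match is on the other strand).

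Psmb8 lies at chr20:4656982-4657281 on the minus strand, Psmb10 at chr19:50743243-50743542 on the minus strand and Psme2 at chr15:33052702-33053001 on the minus strand. These are the members called higher in si-GPD1L (described below) that hold a match.
Psmb8: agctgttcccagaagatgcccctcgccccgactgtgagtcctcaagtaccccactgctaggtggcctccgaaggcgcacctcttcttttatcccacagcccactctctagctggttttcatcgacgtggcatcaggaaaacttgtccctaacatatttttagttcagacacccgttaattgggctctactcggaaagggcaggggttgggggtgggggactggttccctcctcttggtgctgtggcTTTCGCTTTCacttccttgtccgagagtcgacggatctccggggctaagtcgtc
Psmb10: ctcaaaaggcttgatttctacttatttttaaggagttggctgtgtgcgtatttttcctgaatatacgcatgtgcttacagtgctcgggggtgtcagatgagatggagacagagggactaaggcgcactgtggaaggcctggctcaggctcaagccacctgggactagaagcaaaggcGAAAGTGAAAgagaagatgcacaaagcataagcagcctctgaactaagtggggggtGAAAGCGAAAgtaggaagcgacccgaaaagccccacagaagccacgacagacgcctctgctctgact
Psme2: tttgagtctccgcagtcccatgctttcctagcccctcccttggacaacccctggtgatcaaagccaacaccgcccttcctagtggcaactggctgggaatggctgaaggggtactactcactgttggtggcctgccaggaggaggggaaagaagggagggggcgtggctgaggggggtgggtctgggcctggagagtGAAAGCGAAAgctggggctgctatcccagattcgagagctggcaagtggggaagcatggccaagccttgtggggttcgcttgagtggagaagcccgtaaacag

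The Psmb8 match runs from 4 bases before the annotated start to 5 bases after it, and the Psme2 match begins 53 bases before the start. Psmb10 has a pair of matches, beginning 73 and 17 bases before its start.

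Psmb9 and Tap1, a gene of the peptide transporter into the endoplasmic reticulum, start 457 bases apart on opposite strands, and their windows share 44 bases. Psmb9 lies at chr20:4668750-4669049 on the plus strand and Tap1 at chr20:4668494-4668793 on the minus strand. The pair is shown because both genes rose, and only the Tap1 window holds a match, beginning 121 bases before the Tap1 start.
Psmb9: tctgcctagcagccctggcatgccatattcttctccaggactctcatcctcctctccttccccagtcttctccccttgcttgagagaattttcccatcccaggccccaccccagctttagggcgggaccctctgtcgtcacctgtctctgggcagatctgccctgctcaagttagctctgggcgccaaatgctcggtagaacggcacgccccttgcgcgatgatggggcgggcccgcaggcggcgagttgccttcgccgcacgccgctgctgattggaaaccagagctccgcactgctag
Tap1: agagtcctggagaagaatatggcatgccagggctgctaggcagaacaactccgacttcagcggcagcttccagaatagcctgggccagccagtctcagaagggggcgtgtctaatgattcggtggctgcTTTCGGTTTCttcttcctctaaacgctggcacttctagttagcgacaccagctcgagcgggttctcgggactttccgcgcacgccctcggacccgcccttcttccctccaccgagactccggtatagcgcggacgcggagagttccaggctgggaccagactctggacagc

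Psmb5, at chr15:32047330-32047629 on the minus strand, is the constitutive counterpart of Psmb8 and is shown for comparison. Its window holds no match.
Psmb5: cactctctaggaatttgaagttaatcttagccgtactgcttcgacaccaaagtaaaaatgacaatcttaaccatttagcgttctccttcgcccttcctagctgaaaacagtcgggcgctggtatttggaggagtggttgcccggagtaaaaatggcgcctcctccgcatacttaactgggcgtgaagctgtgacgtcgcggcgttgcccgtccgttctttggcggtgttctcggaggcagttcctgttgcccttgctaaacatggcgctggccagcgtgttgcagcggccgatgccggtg

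Over all 33469 windows 3.92% hold a match to the element, and over the 11769 windows of genes tested 2.96% do. Among the members 7 of 45 windows hold it, namely 3 of the 6 members that were called different between the groups (described next) and 4 of the 39 others. Those 4 are Psma4, Psmb3, Psmd7 and Psmg4, whose transcripts did not pass the test. The called members whose windows hold no match are Psmb9, Psme1 and Psmf1. A second set of letters, TTCNNNGAA, named the interferon-gamma activated site, was found in 8.87% of all windows and in 4 members, Psmb8, Psmc6, Psmd3 and Psmd7. A match of letters is a description of these windows, not a site or a cause, and absence of the letters says nothing about sequence outside the window.

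Among the proteasome genes, the 3 immunoproteasome subunits, both PA28αβ genes and Psmf1 were higher in si-GPD1L, while no subunit of the constitutive core or of the 19S particle passed the test. In edgeR's quasi-likelihood test with adjustment over all 14852 genes tested, 6 of 48 members (12.5%) had an adjusted p under 0.05, against 6.36% of all genes, and all 6 were higher, against 4.03% of all genes. With the study's second threshold, an absolute log2 fold change over 1, the members called were Psmb8, Psmb9 and Psmb10, 3 of 48 against 1.62% of all genes (1.48% in the higher direction). Without an adjustment 12 of 48 members had p under 0.05, beside 22.4% of all genes. The 3 libraries of one group lay wholly above or below the other for 13 members (10 higher, 3 lower in si-GPD1L), where 29.0% of all genes tested did so (15.1% higher, 13.9% lower). The median log2 fold change of the 48 was -0.016, beside -0.0049 over all genes, with 23 above and 25 below 0. Without si-NC replicate 1 that median was 0.058, with 37 above and 11 below 0, so its sign rested on this library. Outside the 5 immunoproteasome and PA28αβ genes the median of the remaining 43 was -0.041, with 1 call, and without si-NC replicate 1 it was 0.047, with 32 above 0, 11 below and 4 calls.

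**Figure D1:**
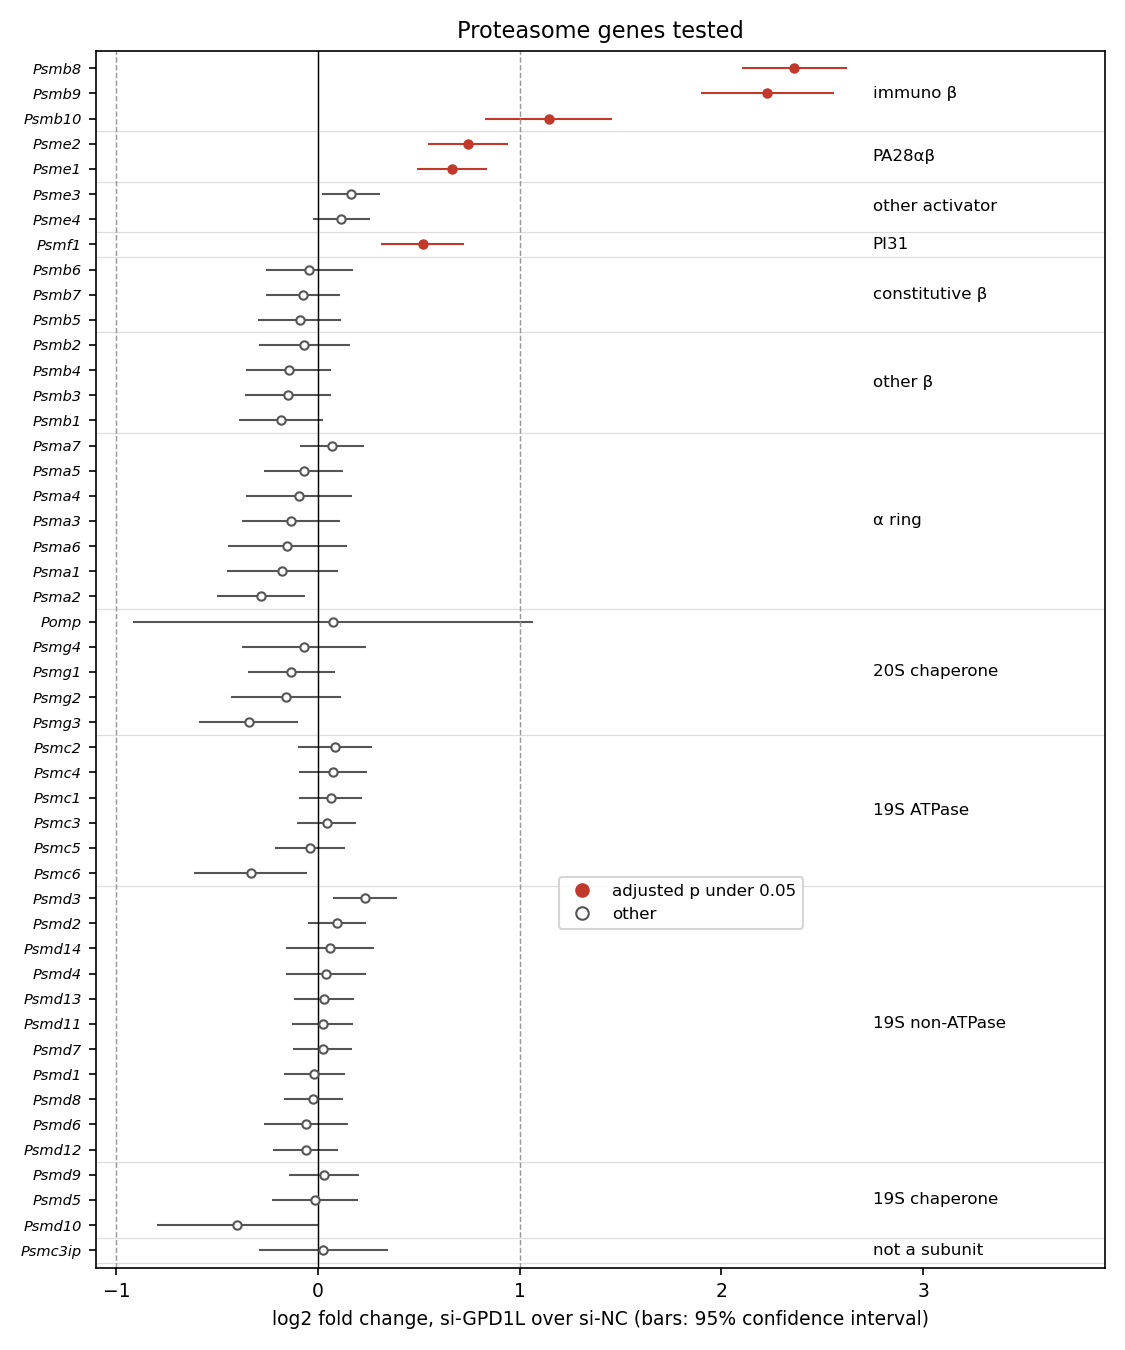
Log2 fold change of si-GPD1L over si-NC (horizontal axis) for the 48 proteasome genes tested, grouped by role, with 95% confidence intervals as bars, filled red points for an adjusted p under 0.05 and dashed lines at -1 and 1. Psmb8, Psmb9 and Psmb10 lie between 1.14 and 2.36, Psme1, Psme2 and Psmf1 between 0.52 and 0.74, and the other 42 members between -0.40 and 0.23.

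Psmb8 encodes the immunoproteasome subunit that takes the chymotrypsin-like site of Psmb5. It lies at chr20:3990809-3993772 in the coordinates of the deposited table (rn6). Its normalized count (scaled so that all libraries have the size of the average one) was 64.3, 62.4 and 64.4 in si-NC and 328, 340 and 315 in si-GPD1L. The groups were far apart and the libraries within each were close. Psmb8 rose by 2.36 on the log2 scale, 5.14-fold (95% confidence interval 4.29-fold to 6.15-fold, adjusted p = 2.94e-08), the largest change among the members.

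Psmb9 encodes the subunit that takes the caspase-like site of Psmb6 and lies beside Tap1 and near Psmb8 in the MHC region, at chr20:3973424-3978845 (rn6). Its normalized count was 74.2, 58.2 and 56.6 in si-NC and 292, 333 and 262 in si-GPD1L. Psmb9 rose by 2.23 on the log2 scale, 4.68-fold (95% confidence interval 1.90 to 2.56 on the log2 scale, adjusted p = 6.89e-07), and the lowest si-GPD1L library was well above the highest of si-NC.

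Psmb10, on chromosome 19 (chr19:37909543-37912027, rn6), encodes the subunit that takes the trypsin-like site of Psmb7. Its normalized count was 258, 194 and 167 in si-NC and 471, 492 and 404 in si-GPD1L. Psmb10 rose by 1.14 on the log2 scale, 2.21-fold (0.83 to 1.46, adjusted p = 0.000351). It started from a higher level than Psmb8 and Psmb9 and its si-NC libraries were more spread, with replicate 1 the highest. Without si-NC replicate 1 its log2 fold change was 1.34, and without si-NC replicate 3 it was 1.01.

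The constitutive counterparts did not pass the test, and their intervals leave room only for small changes. Psmb5 had normalized counts of 1999, 1635 and 1512 in si-NC and 1602, 1594 and 1633 in si-GPD1L (log2 fold change -0.092, 95% confidence interval -0.30 to 0.11, adjusted p = 0.616). Psmb6 had 1186, 990 and 877 against 982, 1005 and 976 (-0.043, -0.26 to 0.17, adjusted p = 0.842). Psmb7 had 1897, 1651 and 1522 against 1629, 1649 and 1542 (-0.073, -0.26 to 0.11, adjusted p = 0.666). For each of the 3 genes the si-NC libraries spread around the si-GPD1L libraries, and si-NC replicate 1 was the highest of all 6. Without it the 3 log2 fold changes were 0.033, 0.082 and 0.018, all on the other side of 0.

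The levels of these genes can be compared with each other as TPM, which divides the counts by the length of the gene. TPM is a level, and differences are taken from the normalized counts, since over the genes tested the log2 difference of TPM was 0.083 (median) above the fitted log2 fold change. In si-NC the mean TPM was 256 for Psmb5, 222 for Psmb7, 156 for Psmb6, 26.2 for Psmb10, 8.79 for Psmb9 and 7.51 for Psmb8. Psmb5 and Psmb7 overlapped between libraries, and the other neighbours in this order did not. In si-GPD1L the order was Psmb5 (256), Psmb7 (224), Psmb6 (161), Psmb10 (61.8), Psmb9 (43.9) and Psmb8 (40.9). There the libraries of Psmb8 and Psmb9 overlapped and the other neighbours did not. Even in si-GPD1L the least abundant constitutive gene, Psmb6, had more TPM in every library than the most abundant immunoproteasome gene, Psmb10.

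**Figure D2:**
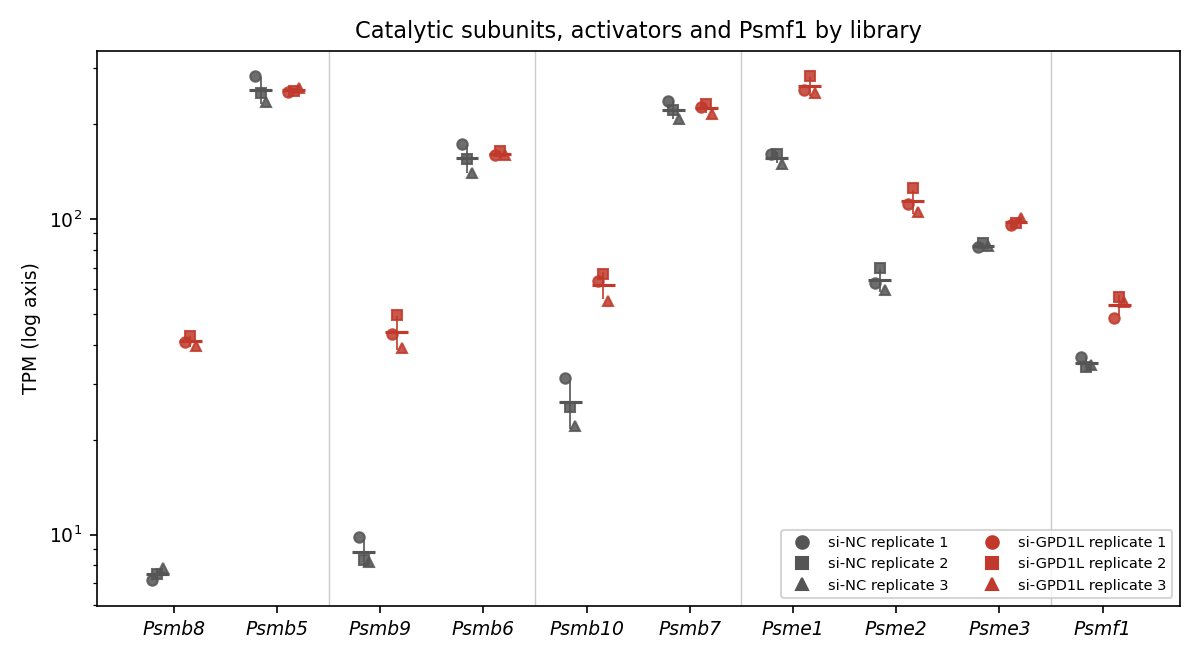
TPM (vertical log axis) of the catalytic subunit genes set beside their counterparts, of Psme1, Psme2 and Psme3 and of Psmf1, with 1 marker per library (si-NC grey, si-GPD1L red), a horizontal line for the mean and a vertical line for 1 SD on each side (n = 3). Psmb8, Psmb9 and Psmb10 sit below their counterparts in both groups, and move up in si-GPD1L, where the means of Psmb5, Psmb6 and Psmb7 (256, 161 and 224) stay near those of si-NC (256, 156 and 222).

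The summed TPM of the 3 immunoproteasome subunits was 42.5 ± 5.16 for si-NC against 147 ± 13.0 for si-GPD1L (SD, n = 3 each), while that of the 3 constitutive subunits was 634 ± 55.4 and 641 ± 8.27. The immunoproteasome genes thus held 6.51%, 6.15% and 6.16% of the catalytic subunit TPM for si-NC against 18.8%, 19.7% and 17.3% for si-GPD1L. The mean share was 6.27% ± 0.207 in si-NC and 18.6% ± 1.17 in si-GPD1L (SD, n = 3 each), 12.3 percentage points apart, and the groups did not overlap (two-sided exact permutation test, p = 0.10, the smallest that 3 libraries against 3 allow).

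The ratio of each induced subunit to its own counterpart asks whether the pair changed unequally, and any scaling of a library cancels in it. The log2 ratio of Psmb8 to Psmb5 was -5.31, -5.06 and -4.90 in si-NC and -2.64, -2.58 and -2.72 in si-GPD1L. It was thus 2.44 ± 0.13 (standard error of the difference) higher in si-GPD1L, 5.44-fold. The log2 ratio of Psmb9 to Psmb6 was -4.13, -4.22 and -4.09 against -1.88, -1.73 and -2.03, a difference of 2.27 ± 0.097, or 4.81-fold. The log2 ratio of Psmb10 to Psmb7 was -2.92, -3.13 and -3.23 against -1.83, -1.79 and -1.97, a difference of 1.23 ± 0.11, or 2.35-fold. Each of the 3 two-sided exact permutation tests gave p = 0.10, the smallest possible, and 0.10 after adjustment over the 3 ratios. In all 3 ratios the groups were separated by more than the whole spread within either group.

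**Figure D3:**
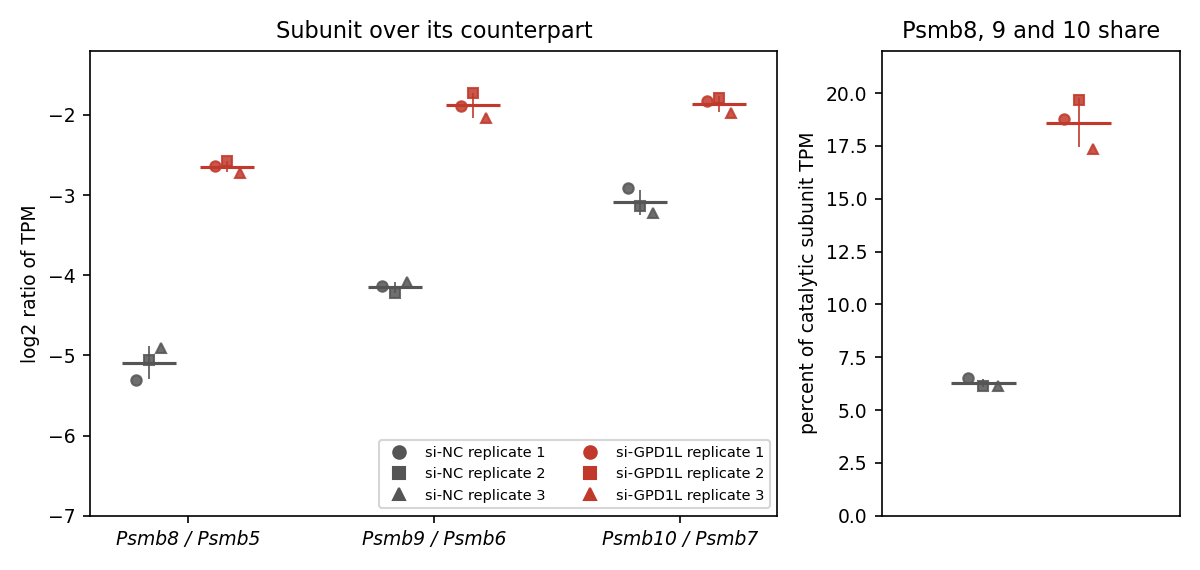
Left, the log2 ratio of TPM (vertical axis) of each immunoproteasome subunit to its constitutive counterpart, and right, the percent of the catalytic subunit TPM held by Psmb8, Psmb9 and Psmb10, with 1 marker per library, a line for the mean and a bar for 1 SD on each side (n = 3 in each group). All ratios lie below 0, the si-GPD1L libraries lie above the si-NC libraries in each, and the share lies between 6.15% and 6.51% in the grey points and between 17.3% and 19.7% in the red ones.

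Within the induced trio Psmb10 changed less than the others. These ratios were chosen after the values were seen and are given without a test. The log2 ratio of Psmb8 to Psmb10 was -1.79 ± 0.32 in si-NC and -0.59 ± 0.098 in si-GPD1L (SD, n = 3 each), and that of Psmb9 to Psmb10 was -1.57 ± 0.12 and -0.50 ± 0.063. The log2 ratio of Psmb8 to Psmb9 was -0.22 ± 0.21 in si-NC and -0.094 ± 0.12 in si-GPD1L, with overlapping libraries.

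Leukocytes and endothelial cells also express immunoproteasome genes, so their markers are given beside this result. None of the 13 leukocyte markers tested was called, their summed normalized count ran from 3125 to 3382 for si-NC against 2681 to 3786 for si-GPD1L, and Cd3e, which defines T lymphocytes, had at most 3 counts in every library. Of the 11 endothelial markers tested 4 were higher and none lower, from Tie1 (1.48-fold) to Plvap (2.71-fold), and the median log2 fold change of the 11 was 0.56. They had a summed normalized count of 10430 to 12548 for si-NC against 13512 to 13944 for si-GPD1L, a ratio of 1.18, but most of that sum was Eng, at means of 9393 and 10963. The 4 called endothelial markers thus rose with the immunoproteasome genes. The others were not called, at log2 fold changes from 0.12 for Flt1 to 0.87 for Vwf. The part of endothelial cells in the result was not tested. Of the 12 fibroblast markers 3 were called lower, Dcn, Lum and Fbln1, and 0 higher. Beside each of these marker counts, 4.03% of all genes tested were called higher and 2.33% lower. Of the 8 smooth muscle and pericyte markers 1 was higher (Cspg4) and 1 lower (Des). Of the 12 cardiomyocyte markers 1 was lower (Pln). In bulk libraries, fewer cells of a type and less RNA per cell cannot be told apart.

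The PA28αβ activator genes rose less than the catalytic subunits and stayed in step with each other. Psme1 had normalized counts of 1325, 1229 and 1125 in si-NC and 1902, 2081 and 1848 in si-GPD1L. It rose by 0.66 on the log2 scale, 1.59-fold (0.49 to 0.84, adjusted p = 0.000238). Psme2 had 698, 722 and 604 against 1109, 1232 and 1042. It rose 1.67-fold, by 0.74 on the log2 scale (0.54 to 0.94 on that scale, adjusted p = 0.000259). The groups of neither gene overlapped. The log2 ratio of Psme2 to Psme1 in TPM, which was looked at after the values were seen, was -1.29 ± 0.084 in si-NC and -1.21 ± 0.035 in si-GPD1L (SD, n = 3 each). The PA28αβ genes were not scarce in the control, with mean TPM of 157 for Psme1 and 64.2 for Psme2 in si-NC, and 264 and 114 in si-GPD1L.

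The other activators did not pass the test. Psme3 encodes PA28γ, a nuclear relative of PA28αβ that is not known as an interferon target. Its normalized counts were 1757, 1681 and 1616 in si-NC and 1854, 1871 and 1939 in si-GPD1L, without overlap (log2 fold change 0.16, 0.018 to 0.31, adjusted p = 0.172). Psme4, which encodes the activator PA200, had 4034, 3999 and 3984 against 4312, 4339 and 4370, again without overlap (0.12, -0.025 to 0.26, adjusted p = 0.319). Without si-NC replicate 1 the adjusted p of Psme3 was 0.0293, at a log2 fold change of 0.19.

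Psmf1, which encodes the proteasome-binding protein PI31, was the one called member outside the immunoproteasome and PA28αβ genes. Its normalized counts were 474, 410 and 408 in si-NC and 566, 651 and 632 in si-GPD1L. It rose by 0.52 on the log2 scale, 1.43-fold (0.31 to 0.73, adjusted p = 0.00661). The groups did not overlap, although without si-GPD1L replicate 2 its adjusted p was 0.0605.

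The constitutive 20S core was read as a group of 14 genes, the 7 α subunits tested and the 7 constitutive β subunits, and none was called. Of the 14, 13 had a log2 fold change below 0, with a median of -0.11, and the range ran from -0.28 for Psma2 to 0.069 for Psma7. In all 14 genes si-NC replicate 1 had the highest normalized count of the 6 libraries. Without that library the median was 0.036 and 10 of the 14 lay above 0, so the direction of the group rested on it. The confidence intervals of all 14 lay within 1 on either side of 0.

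**Figure D4:**
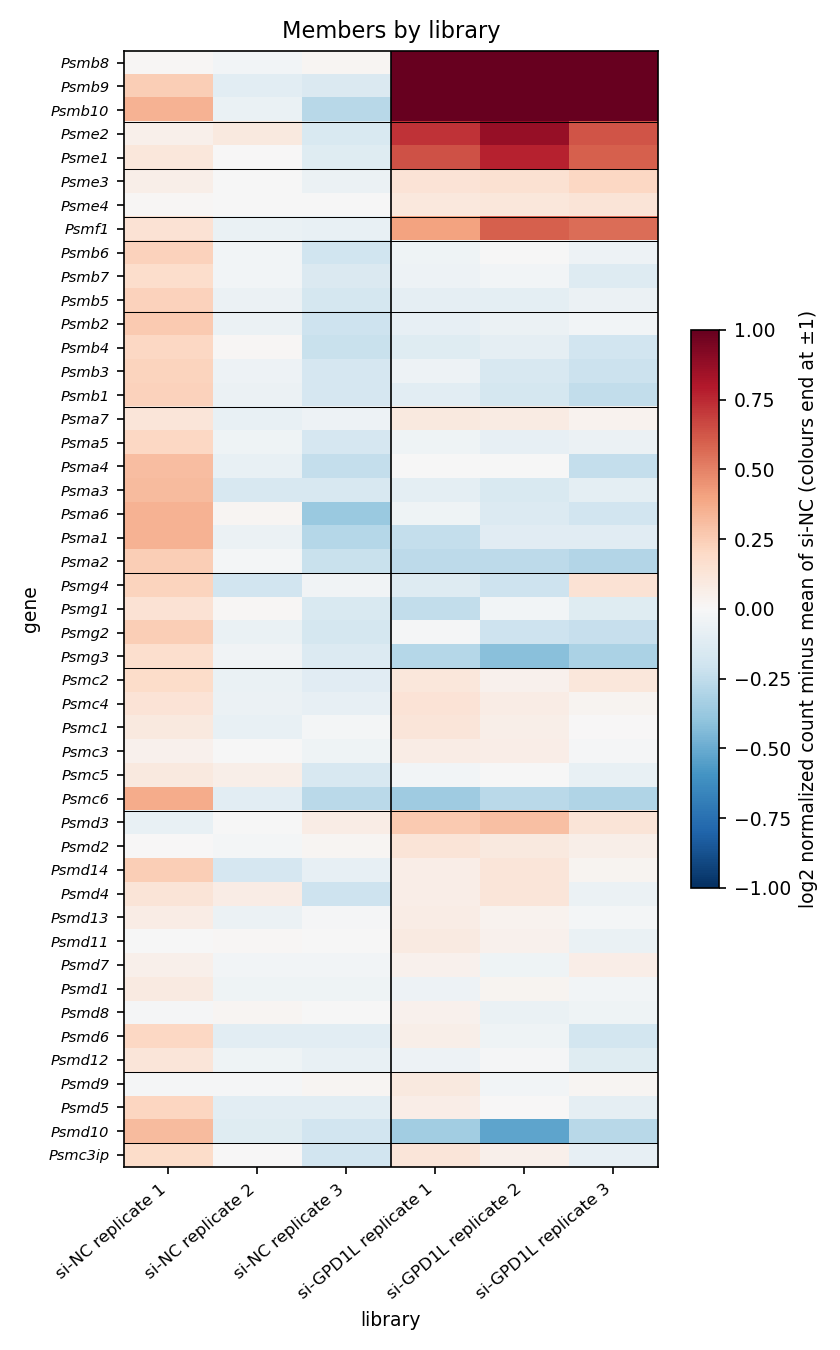
Log2 normalized count minus the mean of the 3 si-NC libraries (colour, red higher and blue lower, ending at -1 and 1) for 47 tested members in rows, grouped by role, and the 6 libraries in columns, with Pomp left out for its low counts. The rows of Psmb8, Psmb9 and Psmb10 reach or nearly reach the end of the scale in each si-GPD1L library, and the column of si-NC replicate 1 is red across the 14 genes of the constitutive core.

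Psma2, an α-ring subunit, had the lowest log2 fold change of the core, with normalized counts of 1810, 1507 and 1313 in si-NC and 1279, 1277 and 1246 in si-GPD1L (log2 fold change -0.28, -0.50 to -0.065, adjusted p = 0.118). The groups did not overlap, and its adjusted p was 0.0194 with si-NC replicate 3 left out and 0.154 with si-NC replicate 1 left out. Psma7, another α subunit, had 2352, 2059 and 2087 against 2309, 2294 and 2215 (0.069, adjusted p = 0.626). Among the β subunits that do not cut, Psmb1 had the lowest log2 fold change, with 3135, 2561 and 2380 against 2484, 2366 and 2259 (-0.18, adjusted p = 0.281). Psmb2 lay nearest to 0, with 1197, 963 and 868 against 945, 960 and 983 (-0.068, adjusted p = 0.750). All these ranges overlapped except that of Psma2.

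The 19S particle held 17 tested genes, 6 ATPases of the base and 11 other subunits, and none was called. The median log2 fold change was 0.029, with 11 above and 6 below 0, and each confidence interval lay within 1 on either side of 0. Among the ATPases Psmc2 had the highest log2 fold change, with normalized counts of 2055, 1725 and 1669 in si-NC and 1961, 1861 and 1959 in si-GPD1L (0.085, adjusted p = 0.600). Psmc6 had the lowest, with 2181, 1570 and 1397 against 1316, 1401 and 1366 (-0.33, -0.62 to -0.052, adjusted p = 0.150). The groups of both genes overlapped. In both genes si-NC replicate 1 was the highest library. Without it Psmc2 had a log2 fold change of 0.18 (adjusted p = 0.0427) and Psmc6 one of -0.12 (adjusted p = 0.251), while without si-NC replicate 3 the value of Psmc6 was -0.46 (adjusted p = 0.0265).

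Psmd3, a subunit of the 19S lid, had the highest log2 fold change of the particle, with 1690, 1777 and 1869 in si-NC and 2126, 2192 and 1946 in si-GPD1L (0.23, 0.072 to 0.39, adjusted p = 0.0821). Its groups did not overlap, and without si-NC replicate 1 its adjusted p was 0.0455 at a log2 fold change of 0.19. Psmd12, another lid subunit, had the lowest log2 fold change of the non-ATPase subunits, with 1585, 1418 and 1388 against 1414, 1450 and 1344 (-0.061, adjusted p = 0.682). The groups of Psmd2, a large scaffold subunit of the base, did not overlap either, at a log2 fold change of 0.095 (adjusted p = 0.434).

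The assembly chaperones did not pass the test. Of the 5 genes for the assembly of the core, Psmg3 had the lowest log2 fold change, with normalized counts of 309, 269 and 251 in si-NC and 226, 206 and 222 in si-GPD1L (-0.34, -0.59 to -0.099, adjusted p = 0.0923). Its groups did not overlap, and its adjusted p was 0.0499 without si-NC replicate 3. Pomp, the maturation factor that both kinds of core need, was counted at 17, 9 and 6 raw reads in si-NC and at 11, 9 and 14 in si-GPD1L. Its log2 fold change was 0.074, with an interval from -0.92 to 1.07 (adjusted p = 0.948), so a change of up to about 2-fold either way was not detectable at this depth. Another row described as a proteasome maturation protein-like gene on the same chromosome had 53, 28 and 35 counts against 33, 43 and 25, and reads common to the copies may have been split or dropped.

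Of the 3 chaperones of the 19S base, Psmd10, which encodes gankyrin, had the lowest log2 fold change of all members in the 6 libraries, with normalized counts of 121, 88.9 and 84.9 in si-NC and 76.3, 67.3 and 79.9 in si-GPD1L (-0.40, -0.80 to -0.0023, adjusted p = 0.221). The groups lay close without overlapping. Its value was -0.23 without si-NC replicate 1, above that of Psmg3 (-0.26), and -0.33 without si-GPD1L replicate 2, above that of Psmc6 (-0.36). Psmd9 had the highest, with 566, 566 and 579 against 610, 559 and 577 (0.028, adjusted p = 0.874). Psmc3ip, which is no proteasome subunit, had 136, 121 and 105 against 131, 125 and 114 (0.026, adjusted p = 0.943).

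Copies of proteasome genes bear on these counts. Beside the members, 53 rows of the table are described as proteasome genes or pseudogenes, of which 48 had at most 3 counts in every library and 4 reached 10. No library had more than 3 counts for a Psmb8-like row on chromosome 20, or more than 13 for a Psme2-like row. How reads that fit several copies were counted is not given in the sources used here, so reads of Psmb8 or Psme2 lost to a copy cannot be counted.

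The genes that carry proteasome products to MHC class I were read as a list of 19, all tested. In si-GPD1L 8 of 19 were higher and 0 lower, against 4.03% and 2.33% of all genes, and 4 were past both thresholds. The median log2 fold change was 0.090, beside -0.0049 over all genes, and the 11 that were not called ran from -0.13 to 0.66. Tap1, the neighbour of Psmb9, had normalized counts of 258, 270 and 285 in si-NC and 1281, 1470 and 1285 in si-GPD1L, and rose by 2.31 (2.12 to 2.50, adjusted p = 1.75e-09), close to the values of Psmb8 and Psmb9. Tap2, which encodes the partner of Tap1 in the transporter, had only 10, 19 and 30 raw counts against 30, 26 and 38 (0.66, -0.14 to 1.46, adjusted p = 0.319).

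Among the loading and trimming genes, Tapbp, the tapasin gene, rose by 1.41 from 523 ± 68.4 to 1388 ± 121 normalized counts (SD, n = 3 each). B2m, the light chain of MHC class I, rose by 0.84 from 7367 ± 1198 to 13228 ± 1136, and Erap1, which trims peptides, rose by 0.64 from 1782 ± 166 to 2777 ± 91.4. Tapbpl, a relative of tapasin, rose by 0.38, but its adjusted p of 0.0307 rose above 0.05 when si-NC replicate 2 (0.102) or one of si-GPD1L replicates 2 and 3 (0.193 and 0.111) was left out, and it was 0.0643 with the transcript table. Some of the transcription factors listed for this pathway were also called, but Irf2 was not (log2 fold change -0.057, adjusted p = 0.797). Nlrc5, an activator of MHC class I genes, rose by 3.62 from 10.4 ± 1.40 to 129 ± 30.1. Its raw counts were 9, 11 and 11 in si-NC against 102, 180 and 112, so the size of its change rests on a low control level. Irf1, an interferon regulatory factor, rose by 0.60 from 361 ± 25.9 to 546 ± 32.7. The peptidases of the cytosol, Tpp2, Lap3, Blmh, Npepps and Thop1, and the general chaperones Calr, Canx and Pdia3 were not called.

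**Figure D5:**
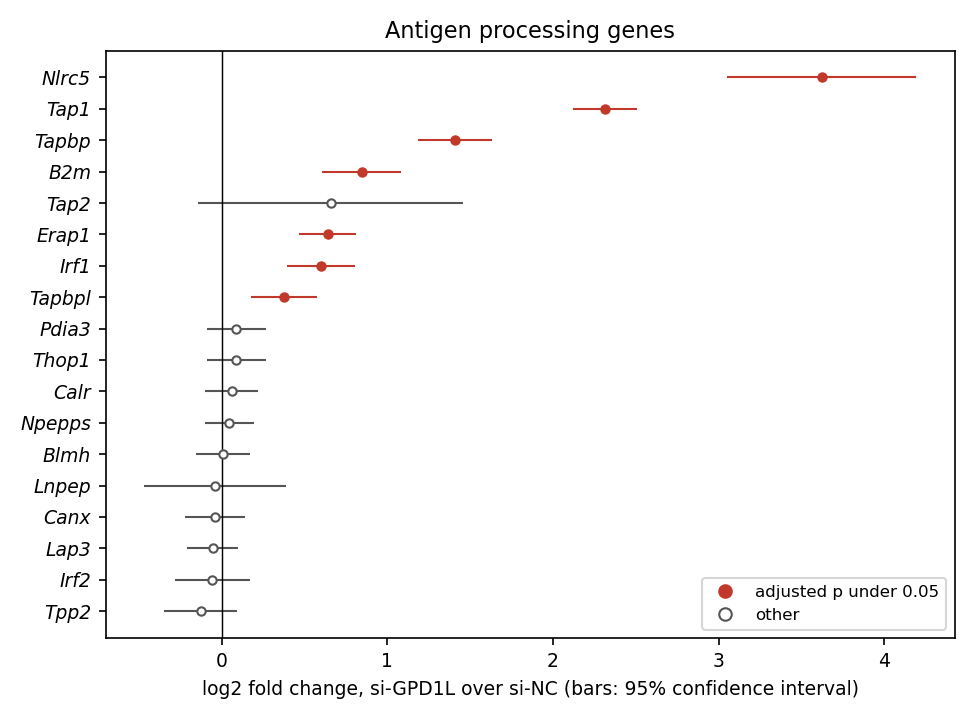
Log2 fold change of si-GPD1L over si-NC (horizontal axis) for 18 of the 19 antigen processing genes, with 95% confidence intervals as bars and filled red points for an adjusted p under 0.05. Called genes run from Tapbpl at 0.38 to Nlrc5 at 3.62, and Tap2 at 0.66 has the widest interval of those not called.

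The genes that work with the constitutive proteasome, among them ubiquitin genes, ubiquitin receptors, deubiquitinases and transcription factors of proteasome genes, gave 26 tested rows. Of these, 1 of 26 was called, against 6.36% of all genes, and with any one of the si-GPD1L libraries left out none was. The median of the 26 was 0.029, and those not called ran from -0.32 for Shfm1, a small 19S subunit named outside the Psm series, to 0.25 for Ubqln2, a ubiquitin receptor. The members together held 0.572% to 0.645% of all TPM for si-NC against 0.634% to 0.663% for si-GPD1L. The 5 immunoproteasome and PA28αβ genes summed to a mean of 263 TPM in si-NC and 524 in si-GPD1L. The other members summed to 5803 and 5987. These are levels, with the log2 TPM difference 0.083 (median over genes tested) above the fitted change. A change of the total was not tested.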

How the data were processed

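Rat atrial fibroblasts with si-NC or si-GPD1L (3 libraries each) were compared. The authors deposited whole-number read counts for 40154 genes and 55760 transcripts, and TPM values, which are counts divided by length and scaled to a common sum. The submitters' processing notes name bcl2fastq, HISAT2 2.1.0, HTSeq 0.12.4 and the build rn6; strand setting, annotation release and the treatment of reads that fit several genes are not given in the sources used here. The libraries were captured by the polyA tail, and TPM assumes even coverage along a gene, which was not tested. The deposited comparison tables (fold changes, p-values, enrichment) were not used.

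The counts were tested in R 4.3.3 with edgeR 4.0.16 (filterByExpr, TMM, quasi-likelihood test of group, Benjamini-Hochberg over 14852 genes, adjusted p under 0.05). Depth was 16892255 to 20149732 counts per library (biological coefficient of variation 0.0894), a count of 0 allows up to 3, and intervals cover these libraries only. Ratios and shares were tested by two-sided exact permutation with scipy 1.17.1. On simulated data with 14658 genes the quasi-likelihood test recovered 55 of 80 genes changed by 0.5 on the log2 scale, 76 of 80 changed by 1 and 40 of 40 changed by 2, with 12 false calls. The changed genes were drawn from those with higher counts, and no simulated library was made to stand apart. The rates need not hold for low counts or for the spread of si-NC replicate 1. The alternatives were DESeq2 1.42.0 (size factors, Wald test), upper-quartile normalization, edgeR's exact test, other count filters, a replicate block, each library left out, the transcript table and, for the share, no division by length. Motifs were searched in RefSeq windows, and figures were drawn with matplotlib 3.10.9.

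Genes named with values per library were the catalytic and PA28αβ genes, Pomp, every called member and the highest and lowest member of each role; of the lists, every called gene (at most 8), some of which are not reported here. A few others were named after their values were seen. The members and lists were chosen with earlier results of these data known.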

Additional observations from a re-analysis of the deposited data

How the results depend on the processing

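The calls of Psmb8, Psmb9, Psmb10, Psme1 and Psme2 and their direction held under all 14 alternatives, and the count past both thresholds was 3 in each. The count of members with an adjusted p under 0.05 was 8 with no filter beyond 1 count (6 higher, and Psma2 and Psmc6 lower) and ran from 5 to 9 when 1 library was left out, the 9 without si-NC replicate 1 (9 higher) and without si-NC replicate 3 (6 higher, 3 lower). The share difference of 12.3 points was 10.5 with the transcript table, where the cause was not tested, and 13.4 without division by length. The count of called antigen processing genes, 8, ran from 7 to 9 with 1 library left out, was 7 with the transcript table (Tapbpl not called) and 7 with at least 10 counts in every library (Nlrc5 not tested). The count of called partner genes, 1, was 3 with no filter, 2 by edgeR's exact test, 2 with the replicate block, 0 with the transcript table and 0 to 3 when 1 library was left out. When 1 library was left out, the log2 fold changes ran from -0.18 to 0.033 for Psmb5, -0.14 to 0.082 for Psmb6, -0.14 to 0.018 for Psmb7 and -0.17 to 0.073 for Psmb2, the upper end always without si-NC replicate 1. They ran from -0.23 to 0.56 for Pomp (-0.0018 and -0.11 also lay below 0), -0.0078 to 0.056 for Psmd9 and -0.066 to 0.12 for Psmc3ip (-0.021 also lay below 0). Same-numbered libraries did not deviate together (correlations -0.016, -0.0058 and 0.044). These values cannot tell whether such libraries share a culture or animal, which the labels do not say. With the replicate block 6 members were called and 921 genes in all, against 945. Across all genes the count of calls ran from 361 without si-GPD1L replicate 2 to 1531 without si-NC replicate 1, was 1929 with no filter and 1528 by edgeR's exact test, and was 623 with the transcript table. Past both thresholds it was 359 with no filter. Depth limits Pomp, Psma8, Psmb11 and Tap2, and the si-NC level of Nlrc5.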
